A study of Mus musculus with 4 samples.

Results

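Nuclear receptors such as the thyroid hormone receptors act on genes through partner proteins, and 9 mouse genes for such partners are described here: 4 corepressor complex genes (Ncor1, Hdac3, Tbl1xr1 and Gps2), 3 coactivator genes (Ncoa1, Ncoa2 and Ncoa3) and 2 retinoid X receptor genes (Rxra and Rxrb). They were chosen by function and found by symbol among the 22609 genes of the deposited table. RNA was taken from whole testes of mice at postnatal day 3, on a background that was mostly C57BL/6J, in 2 mutant and 2 wild-type libraries. Mutant animals carried a dominant-negative thyroid hormone receptor alpha 1, a form that represses where the normal receptor would activate. They came from a cross of AmhCre mice, in which the Amh promoter drives Cre recombinase in Sertoli cells, with heterozygotes for the TRαAMI allele of Thra. Libraries labelled wild type had a wild-type receptor; the labels do not say which of the 2 parental alleles those animals carried, or whether a library was made from 1 animal or several. The study asked which testis genes depend, directly or not, on this receptor in Sertoli cells.

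Thyroid hormone receptors bind DNA mostly as heterodimers with a retinoid X receptor (RXR). Without hormone they hold a corepressor complex built on a scaffold protein such as NCoR1, together with the deacetylase HDAC3, the transducin-beta-like proteins TBL1X and TBLR1, and GPS2. Hormone binding exchanges this complex for coactivators of the p160 family, NCOA1 to NCOA3, which recruit histone acetyltransferases, and for Mediator, which contacts RNA polymerase II. A dominant-negative receptor keeps the corepressor complex on DNA when hormone is present.

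The libraries held 11089136 and 15636832 gene counts in mutant replicates 1 and 2, against 13228903 and 10230512 in wild-type replicates 1 and 2. Thra, which carries the engineered allele, was at 237 and 194 CPM (counts scaled to a common library size by the TMM method of edgeR) in the mutant libraries, against 398 and 257 CPM in the wild-type libraries (adjusted p = 0.0964 by edgeR's quasi-likelihood test). Its log2 fold change of -0.60 became -0.89 when wild-type replicate 2 was omitted and -0.75 when mutant replicate 1 was omitted, and both of these fits called it, with adjusted p of 0.0464 and 0.00556 in edgeR. The other 2 such fits did not call it: the value was -0.26 (adjusted p = 0.319, edgeR) once wild-type replicate 1 was dropped and -0.47 (adjusted p = 0.102, edgeR) once mutant replicate 2 was dropped. Counts per gene do not separate its normal from its mutant transcript, so they check no label. Sertoli markers such as Sox9 were present in every library and the 10 of them summed to 3831 and 3818 CPM in mutant, against 4586 and 4972 CPM in wild-type testes. Most of that difference was Aard, at 646 and 748 CPM in mutant, against 1227 and 1584 CPM in wild-type testes; edgeR called Aard, Cldn11 and Dmrt1 lower and did not call the other 7 markers, Amh and Inha among them. Marker RNA of several other cell types differed between genotypes, in lists chosen with earlier results of these data known. The 10 skeletal muscle markers together reached 2212 CPM in mutant replicate 1 and 563 CPM in mutant replicate 2. The wild-type pair had 15.2 and 14.02 CPM, and all 10 markers lay higher in both mutant libraries. Of these, Myog was at 0 in both wild-type libraries. The 10 germ cell markers summed to 314 and 273 CPM in mutant, against 843 and 567 CPM in wild-type testes, and 7 macrophage markers to 192 and 246 CPM in mutant, against 120 and 135 CPM in wild-type testes. The 5 adipocyte markers summed to 27.4 and 26.2 CPM in mutant, against 73.6 and 81.7 CPM in wild-type testes. Sums of the peritubular and smooth muscle markers and of the erythroid markers overlapped between genotypes. Leydig markers summed to 1168 and 1148 CPM in mutant, against 957 and 1069 CPM in wild-type testes. Endothelial markers summed to 301 and 257 CPM in mutant, against 233 and 225 CPM in wild-type testes.

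None of the 9 genes differed between genotypes beyond the threshold of an adjusted p below 0.05. By edgeR's quasi-likelihood test 0 of 9 were called, while 5.67% of the 14788 tested genes were. At an unadjusted p below 0.05 there were 2, Ncoa1 and Ncor1, where 25.5% of all tested genes reached that level, and DESeq2 and limma voom called 0 as well. In 5 of the 9 genes the groups did not overlap, which was the case for 57.3% of all tested genes; both mutant libraries were above in 3 (28.3% of all) and below in 2 (29.0% of all). The log2 fold changes, given throughout as mutant minus wild type, lay between -0.19 and 0.34 with a median of -0.03, against a median of -0.01 over all tested genes. The median size of the change, without its sign, was 0.06 among the 9 genes and 0.19 over all tested genes. These medians are not at like counts: the 9 genes had at least 438 counts in every library, and many tested genes had far fewer. Whether the 9 genes varied less than others of similar counts was not tested. Since these are bulk samples, a different number of cells of a type and a different amount of RNA per cell cannot be told apart.

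**Figure D1:**
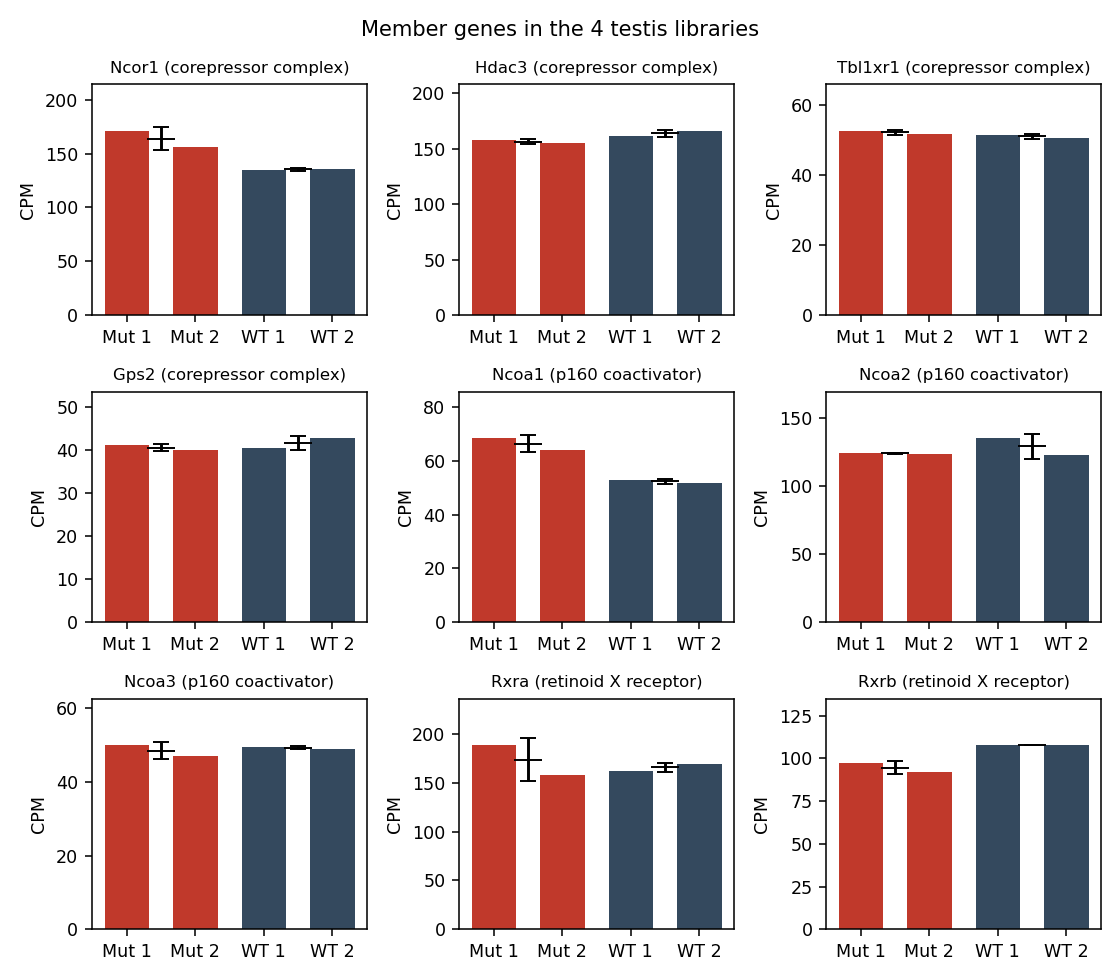
Expression of the 9 genes in CPM, the scaled counts, in each library, with mutant (Mut) in red and wild type (WT) in dark blue; black marks are group means with SD (n = 2 each). Both mutant bars stand above both wild-type bars for Ncor1 and Ncoa1 and below them for Rxrb, while the bars of Gps2, Ncoa2, Ncoa3 and Rxra overlap between groups.

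Among the corepressor genes, Ncor1 was the one whose groups lay farthest apart. Ncor1 (chromosome 11, 62129928 to 62272043, minus strand, NCBIM37, the assembly also called mm9) encodes the scaffold that joins unliganded receptors to HDAC3. It was read at 171 CPM in mutant replicate 1 and 156 CPM in mutant replicate 2, against 134 and 136 CPM in the wild-type pair. Both mutant libraries were above both wild-type libraries, and mutant replicate 1 was the highest. The means of 164 ± 10.6 CPM in mutant and 135 ± 1.22 CPM in wild-type testes (SD, n = 2 each) gave a log2 fold change of 0.28 ± 0.09 (SE), which did not pass (adjusted p = 0.0952, edgeR). It was 0.21 without mutant replicate 1, the library with the most skeletal muscle transcripts (adjusted p = 0.462), and 0.34 without mutant replicate 2 (adjusted p = 0.121). The part of muscle RNA in this difference was not tested.

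The enzyme and the adaptors of the complex stayed within narrow ranges. Hdac3 (chromosome 18, 38095498 to 38114642, minus strand), the deacetylase that NCoR1 activates, was read at 158 and 155 CPM in mutant, against 162 and 166 CPM in wild-type testes. Both mutant libraries were lower, by a log2 fold change of -0.07 ± 0.08 (SE, adjusted p = 0.638, edgeR) with a 95% interval of -0.25 to 0.12. Tbl1xr1 (chromosome 3, 21975574 to 22115516, plus strand) encodes TBLR1, an exchange factor needed to remove corepressors. It was at 52.6 and 51.6 CPM in mutant, against 51.4 and 50.5 CPM in wild-type testes. Both mutant libraries were slightly above both wild-type libraries, and the log2 fold change of 0.03 had a 95% interval of -0.19 to 0.25 (adjusted p = 0.874, edgeR). Gps2 (chromosome 11, 69727390 to 69730093, plus strand), a small subunit that binds both NCoR1 and TBLR1, was at 41.1 and 40.0 CPM in mutant, against 40.6 and 42.9 CPM in wild-type testes. Its groups overlapped, with a log2 fold change of -0.04 and a 95% interval of -0.29 to 0.20 (adjusted p = 0.847, edgeR).

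Of the p160 coactivators, only Ncoa1 had groups that did not overlap. Ncoa1 (chromosome 12, 4247363 to 4484060, minus strand) encodes SRC-1, a coactivator of thyroid and steroid hormone receptors. It was read at 68.6 CPM in mutant replicate 1 and 64.2 CPM in mutant replicate 2, against 53.0 and 51.7 CPM in the wild-type pair. Each mutant library exceeded each wild-type library, and the log2 fold change of 0.34 ± 0.10 (SE), 1.27-fold, was the largest of the 9 (adjusted p = 0.075, edgeR; 95% interval 0.12 to 0.56). Leaving out 1 library at a time gave 0.29 to 0.39, lowest without mutant replicate 1 (adjusted p = 0.327) and highest without mutant replicate 2 (adjusted p = 0.12). Ncoa2 (chromosome 1, 13129186 to 13364164, minus strand), which encodes SRC-2, also called GRIP1 or TIF2, was at 124 and 124 CPM in mutant, against 135 and 123 CPM in wild-type testes. The groups overlapped, and wild-type replicate 1 stood above the other 3 libraries. Its log2 fold change was -0.06 (95% interval -0.26 to 0.14, adjusted p = 0.72, edgeR). Ncoa3 (chromosome 2, 165818136 to 165898742, plus strand), which encodes SRC-3, was at 50.05 and 46.9 CPM in mutant, against 49.6 and 49.0 CPM in wild-type testes. The mutant pair enclosed the wild-type pair, with a log2 fold change of -0.03 (95% interval -0.26 to 0.21, adjusted p = 0.904, edgeR).

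Of the retinoid X receptors, Rxrb was lower in both mutant libraries and Rxra was spread between them. Rxra (chromosome 2, 27531960 to 27618477, plus strand) had 189 CPM in mutant replicate 1 and 158 CPM in mutant replicate 2, against 162 and 169 CPM in the wild-type pair. Its mutant libraries enclosed the wild-type ones, and the log2 fold change of 0.06 ± 0.10 (SE, adjusted p = 0.737, edgeR) became -0.07 without mutant replicate 1 and 0.19 without mutant replicate 2. Rxrb (chromosome 17, 34168757 to 34175338, plus strand), a receptor form present in most tissues, was at 97.3 and 91.8 CPM in mutant, against 108 and 108 CPM in wild-type testes. Both mutant libraries lay below both wild-type libraries, whose SD was 0.0681 CPM, and the log2 fold change was -0.19 ± 0.08 (SE, adjusted p = 0.204, edgeR; 95% interval -0.39 to 0.00385). Germ cell markers were lower in the same 2 libraries, by the sums given above, and their part in the Rxrb value was not tested.

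**Figure D2:**
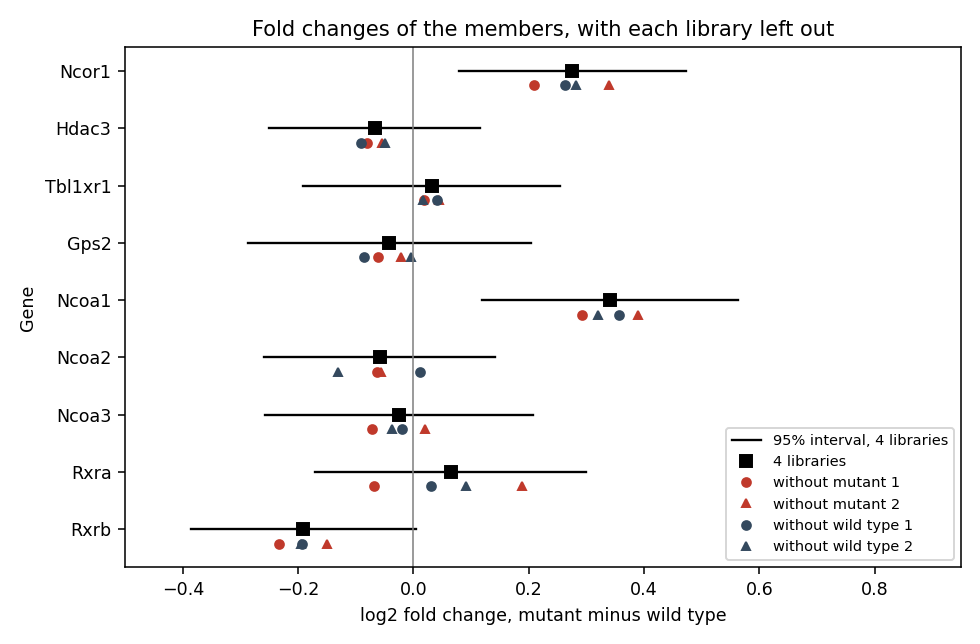
Log2 fold changes of the 9 genes, mutant minus wild type. Black squares with lines are the fit of 4 libraries with its 95% interval, and the points below each line are the fits that leave out 1 library (circle for replicate 1, triangle for replicate 2). The intervals of Ncor1 and Ncoa1 lie above 0 before any adjustment for the 14788 genes tested, and the points of Ncoa2, Ncoa3 and Rxra fall on both sides of 0.

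Promoter sequence is shown for the 2 genes whose groups lay farthest apart, Ncor1 and Ncoa1, and for Rxra, whose downstream start has matches to the receptor half-site. Windows are those of RefSeq on GRCm38.p6, each 300 bases long, running from 250 bases before to 50 after a start, and their coordinates are not comparable with the mm9 positions above. Thyroid hormone receptors and RXRs recognise the half-site AGGTCA, which was searched for on both strands, and matches are in capitals. The first window, 1 of 2 of Ncor1, is chr11:62457283-62457582 on the minus strand, the second, of Ncoa1, chr12:4477133-4477432 on the minus strand, and the third, of Rxra, chr2:27709042-27709341 on the plus strand.
Ncor1: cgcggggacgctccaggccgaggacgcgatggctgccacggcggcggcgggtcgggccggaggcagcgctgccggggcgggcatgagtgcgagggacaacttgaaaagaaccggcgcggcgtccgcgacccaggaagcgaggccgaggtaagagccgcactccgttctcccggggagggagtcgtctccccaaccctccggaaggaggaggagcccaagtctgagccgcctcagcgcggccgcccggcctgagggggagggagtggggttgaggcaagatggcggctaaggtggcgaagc
Ncoa1: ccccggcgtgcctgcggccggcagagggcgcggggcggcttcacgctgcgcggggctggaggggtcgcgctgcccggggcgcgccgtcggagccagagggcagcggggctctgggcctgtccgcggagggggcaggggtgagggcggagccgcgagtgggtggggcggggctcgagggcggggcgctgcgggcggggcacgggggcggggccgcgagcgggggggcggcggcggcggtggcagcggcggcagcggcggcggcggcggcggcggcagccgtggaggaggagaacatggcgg
Rxra, downstream start: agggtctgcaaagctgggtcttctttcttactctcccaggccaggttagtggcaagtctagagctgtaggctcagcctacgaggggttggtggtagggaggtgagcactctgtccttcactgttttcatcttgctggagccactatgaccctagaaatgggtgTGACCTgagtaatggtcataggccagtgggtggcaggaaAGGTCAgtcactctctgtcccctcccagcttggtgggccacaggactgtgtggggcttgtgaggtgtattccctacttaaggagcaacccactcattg
The printed Ncor1 and Ncoa1 windows were rich in G and C (72.3% and 84.7%, against a median of 52.7% over 32851 windows) and held 36 and 49 CG pairs, against a median of 7. The other Ncor1 window, chr11:62438466-62438765, had 38.3% G and C and 2 CG pairs. The Rxra window had a match on the opposite strand at position 164 and another on the printed strand at position 203, counted from 1 at the 5′ end, with 33 bases between them. It was the only one of the 9 member windows examined that held a match. These 9 windows belong to 6 of the genes (Gps2, Ncoa1, Ncor1, Rxra, Rxrb and Tbl1xr1). No window of the remaining members was examined, so whether theirs hold a match is not known. Of all windows 16.3% held at least 1 match and 1.81% held 2 or more. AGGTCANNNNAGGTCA, the direct repeat with a spacing of 4, on either strand, occurred in 5 of the 32851 windows and in none of the 9. Such a match is a description of the letters, not evidence of binding, and the counts per gene do not tell which start was used.

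Levels were compared between genes only per length, as RPKM, here the CPM divided by the kilobases of annotated exon. Hdac3 was the most abundant of the 9, at 38.9 ± 0.523 RPKM in mutant and 40.7 ± 0.830 RPKM in wild-type testes (SD, n = 2 each). Rxra at 31.8 ± 4.02 and 30.4 ± 0.895 RPKM in mutant and wild-type testes, Rxrb at 25.6 ± 1.05 and 29.2 ± 0.0185 RPKM, and Gps2 at 25.3 ± 0.515 and 26.0 ± 1.05 RPKM followed. The ranges of neighbours in this order overlapped over the 4 libraries from Rxra to Rxrb and from Rxrb to Gps2. The 2 genes of large proteins whose groups did not overlap were lower, Ncor1 at 12.8 ± 0.828 RPKM in mutant and 10.6 ± 0.0949 RPKM in wild-type testes and Ncoa1 at 9.06 ± 0.430 RPKM in mutant and 7.14 ± 0.132 RPKM in wild-type testes. Ncoa2 was at 8.64 ± 0.0352 RPKM in mutant and 8.99 ± 0.630 RPKM in wild-type testes, and its range overlapped that of Ncoa1. Tbl1xr1 at 6.41 ± 0.0884 and 6.27 ± 0.0773 RPKM in mutant and wild-type testes and Ncoa3 at 6.14 ± 0.280 and 6.24 ± 0.0498 RPKM were the least abundant and overlapped. The order depends in part on the length used: with the longest annotated transcript, Rxrb (38.6 RPKM over the 4 libraries) passed Rxra (34.6 RPKM), and Ncoa3 (6.49 RPKM) passed Tbl1xr1 (6.34 RPKM). By that length Ncoa2 was at 15.5 RPKM and Ncoa1 at 8.10 RPKM, so the overlap of their ranges also depends on it.

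**Figure D3:**
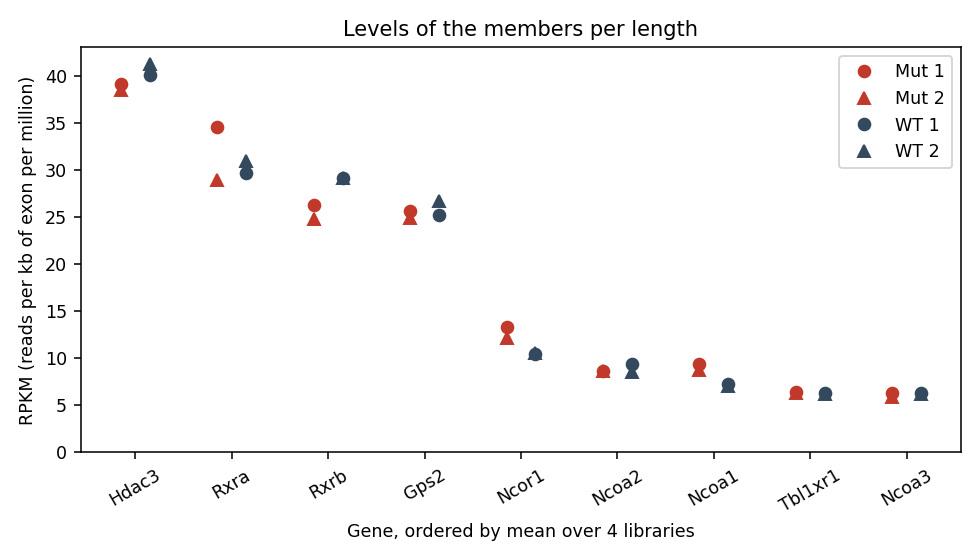
Levels of the 9 genes in RPKM, the scaled counts per kilobase of annotated exon, one point per library, mutant (Mut) in red and to the left of wild type (WT) in dark blue for each gene. Hdac3 is highest near 40 RPKM and Tbl1xr1 and Ncoa3 are lowest near 6 RPKM, and for Ncor1 and Ncoa1 the mutant points lie above the wild-type points.

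Since related proteins can compete for the same receptor surface, the balance between members was also taken within each library, where a scaling factor cancels. Ncoa1 made up 38.4% and 37.6% of the summed p160 RPKM in mutant replicates 1 and 2, against 31.5% and 32.3% in wild-type replicates 1 and 2. The log2 ratio of Ncoa1 over Ncoa2 was 0.11 and 0.02 in mutant, against -0.38 and -0.28 in wild-type testes, a difference in means of 0.40. The sign of such a ratio, and the shares, depend on the length used: with the longest annotated transcript the same ratio was -0.70 and -0.79 in mutant, against -1.20 and -1.09 in wild-type testes. The difference between the groups in a ratio of 2 genes does not depend on it. Between the scaffold and the coactivator that were both higher, the log2 ratio of Ncoa1 over Ncor1 was -0.51 and -0.48 in mutant, against -0.54 and -0.59 in wild-type testes, a difference in means of 0.07. The log2 ratio of Rxra over Rxrb was 0.40 and 0.22 in mutant, against 0.03 and 0.09 in wild-type testes, and the groups did not overlap. The ratios with Ncoa1 are built on the member with the largest change, so their direction is not a separate result. Groups that do not overlap are common, at 57.3% of all tested genes taken singly. With 2 libraries a group an exact two-sided permutation test cannot give a p below 0.333, so none of these 3 ratios was tested.

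**Figure D4:**
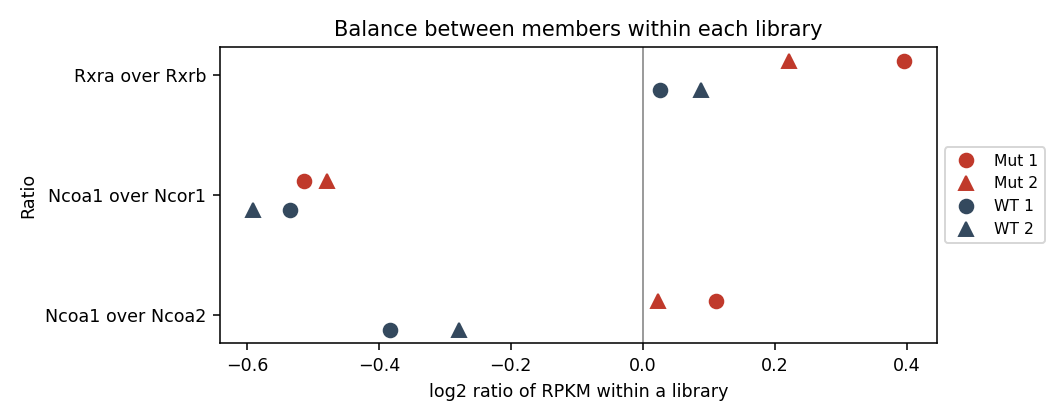
Log2 ratios of RPKM between members within each library, mutant (Mut, red) drawn above wild type (WT, dark blue) for each ratio. In each of the 3 ratios both mutant points lie right of both wild-type points, and the ratios with Ncoa1 share its higher mutant values. Where the points lie relative to 0 depends on the exon length used.

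The pattern of Ncoa1, the gene with the smallest p of the 9, was compared with that of all tested genes by the root mean square difference in log2 CPM, centred on each gene's mean, over the 4 libraries. The nearest were Lrrc58 (0.0124), Armcx3 (0.0135) and Gdnf (0.0142), the last a growth factor that Sertoli cells give to spermatogonial stem cells. With 4 points such nearness is common, and 191 genes lay within 0.05 of Ncoa1.

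The members were set beside 74 other cofactor and receptor genes, all of which were tested. Of these 1 rose and 2 fell, against shares of 3.15% with a call upward and 2.52% with a call downward over the whole table, and the median log2 fold change was -0.04. With all 4 libraries the 16 further corepressor genes had no call by edgeR, DESeq2 or limma voom. By edgeR 3 of them had an unadjusted p below 0.05, as did 25.5% of all tested genes. Sin3a, a scaffold of a separate deacetylase complex, was at 124 and 133 CPM in mutant, against 157 and 145 CPM in wild-type testes, and the class IIa deacetylase gene Hdac7 at 78.4 and 73.4 CPM in mutant, against 62.6 and 65.2 CPM in wild-type testes. Neither passed (adjusted p = 0.14 and 0.147, edgeR). The 16 further coactivator genes had no call by these tools either, with 2 at an unadjusted p below 0.05. These were the arginine methyltransferase genes Carm1, at 91.7 and 88.0 CPM in mutant, against 68.4 and 72.6 CPM in wild-type testes (adjusted p = 0.061, edgeR), and Prmt1, at 300.1 and 296 CPM in mutant, against 353 and 357 CPM in wild-type testes (adjusted p = 0.0984, edgeR). CARM1 binds p160 coactivators. In both the groups did not overlap, with Carm1 higher and Prmt1 lower in mutant libraries.

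All 3 calls were subunits of Mediator, of which 30 genes were tested. Med7 fell to 42.5 and 43.0 CPM in mutant, against 56.3 and 60.7 CPM in wild-type testes (log2 fold change -0.45 ± 0.10, SE; adjusted p = 0.0434, edgeR). Med4 fell to 66.1 and 64.7 CPM in mutant, against 87.8 and 83.6 CPM in wild-type testes (-0.39 ± 0.09, SE; adjusted p = 0.045, edgeR). Both encode subunits of the middle module. Med14, the scaffold subunit, rose to 78.3 and 81.8 CPM in mutant, against 59.8 and 61.8 CPM in wild-type testes (0.40 ± 0.09, SE; adjusted p = 0.045, edgeR). Each of these calls was lost when any 1 of the 4 libraries was left out, with adjusted p between 0.0807 and 0.144. Of the 3, DESeq2 called Med14 and limma voom none. Of the 30 genes 21 had negative fold changes, with a median of -0.16, and in 18 both mutant libraries lay below both wild-type libraries, which held for 29.0% of all tested genes. Med1, the subunit through which Mediator contacts liganded receptors, was at 64.2 and 69.4 CPM in mutant, against 70.2 and 69.5 CPM in wild-type testes (-0.06, 95% interval -0.28 to 0.15; adjusted p = 0.72, edgeR).

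Of 12 genes for the third RXR and for receptors that pair with RXRs, edgeR and limma voom called none, DESeq2 called Vdr, and 7 had an unadjusted p below 0.05 by edgeR, as did 25.5% of all tested genes. Their median size of change was 0.56, against 0.19 over all tested genes, and their median with sign was -0.04. Several of the 12 had few counts in every library and imprecise fold changes, Rxrg below among them (SE 0.82). No comparison with genes of like counts was made. Ppard, a fatty acid receptor, was at 35.4 and 31.2 CPM in mutant, against 22.9 and 23.7 CPM in wild-type testes (log2 fold change 0.51; adjusted p = 0.061, edgeR). Vdr, the vitamin D receptor gene, was at 6.46 and 7.34 CPM in mutant, against 16.3 and 10.6 CPM in wild-type testes (-0.97; adjusted p = 0.0626, edgeR), and passed without mutant replicate 2 (-1.07; adjusted p = 0.0334). Without wild-type replicate 1 its log2 fold change was -0.61 (adjusted p = 0.238, edgeR). Thrb, the second thyroid hormone receptor gene, was at 8.64 and 8.43 CPM in mutant, against 7.96 and 8.72 CPM in wild-type testes (adjusted p = 0.931, edgeR). Rxrg had 42 and 11 counts in mutant replicates 1 and 2, against 11 and 7 counts in wild-type replicates 1 and 2. Mutant replicate 1 alone was high. The log2 fold change of 1.39 (adjusted p = 0.325, edgeR) was -0.12 without mutant replicate 1 and 2.30 without mutant replicate 2 (adjusted p = 0.00317). Rxrg is expressed in skeletal muscle, and Acta1, the skeletal actin gene, was at 875 CPM in mutant replicate 1 and 222 CPM in mutant replicate 2, against 0.601 and 0.686 CPM in the wild-type pair. The part of muscle RNA in the Rxrg value was not tested. Within the family, Rxrg supplied 2.66% and 0.565% of the RXR RPKM in mutant, against 0.607% and 0.494% in wild-type testes, and Rxra and Rxrb the rest.

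**Figure D5:**
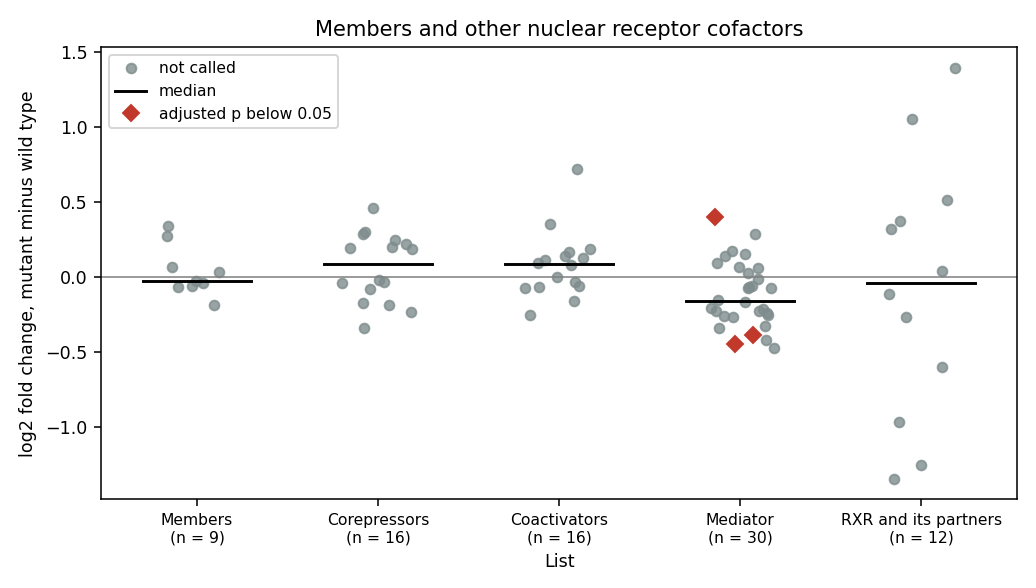
Log2 fold changes, mutant minus wild type, of the 9 members and of 74 further cofactor and receptor genes, one point per gene, with the median of each list as a black line. The red diamonds are the 3 genes with an adjusted p below 0.05, all in Mediator, and the members lie between -0.19 and 0.34.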

How the data were processed

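The deposited table held expected or estimated counts by unit name, since 5 of the lines below its genes are percentages; its gene values are whole raw counts, and rounding changed none. The submitters' processing notes name the build mm9 and the tools TopHat 1.4.0, CASAVA 1.8.1, DESeq2 and HTSeq without their roles; per the labels' protocols, reads were single-end, of 100 bases, from polyadenylated RNA. How the counter treated strand, and which annotation it used, is not given in the sources used here. Reads in shared exons are therefore uncertain: 0.686% of the Ncor1 exon bases lie opposite Pigl and Ttc19, 1.95% of those of Ncoa3 opposite Sulf2 and 5.7% of those of Thra opposite Nr1d1. Reads in no gene (13.8% to 17.3% of counted reads) and ambiguous reads (0.602% to 0.726%) were left out of library sizes and tests.

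Genes with too few counts were removed by edgeR's filter (minimum count 10, minimum total 15), which all 9 members passed. The test was edgeR's quasi-likelihood F test (version 4.0.16, R 4.3.3, TMM, genotype alone, legacy and robust options off), two-sided, with Benjamini-Hochberg adjustment over 14788 genes. The SE follows from the fold change and its F statistic, and the 95% intervals are not adjusted for multiple tests. Because nothing says that libraries came from separate animals, p-values then reflect the spread of these samples alone, which may be technical. The procedure was run on simulated data whose changes were all larger than those of the members, so that run does not show whether small changes would be called. Exon lengths and gene positions come from GENCODE M1 on NCBIM37, which holds 21627 of the 22609 symbols. Planned protein comparisons were not made, since no protein table was used here.

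The members and lists were chosen with earlier results of these data known. The text names all members, of the wider list the called genes, the 2 with the smallest p in each of its 4 groups, and Med1, Rxrg, Thra and Thrb, and the 3 genes nearest Ncoa1 in pattern. Another gene of the wider list, and ratios that use it, are not reported here. Other settings were DESeq2 1.42.0, limma 3.58.1 with voom, other normalisations, filters and quasi-likelihood options, a block for replicate number, and fits that omit 1 library. Deviations of same-numbered libraries from their group means correlated at -0.03 over genes, but with 2 pairs this can neither show nor exclude pairing. The labels give no batch, and for that reason the reported fit used genotype alone.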

Additional observations from a re-analysis of the deposited data

How the results depend on the processing

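No setting called a member: under the 14 other settings the count stayed at 0, and the smallest adjusted p was 0.0678, for Ncoa1 with upper-quartile normalisation. Of 126 member fold changes under these settings, 123 kept their sign and 3 turned, all when 1 library was left out. Leaving out libraries one at a time gave log2 fold changes of -0.131 to 0.0122 for Ncoa2, -0.0713 to 0.0205 for Ncoa3 and -0.0691 to 0.188 for Rxra, and outside the members -0.12 to 2.30 for Rxrg and -0.0363 to 0.0955 for Thrb. The median of the members ran from -0.0628 to 0.0205 in the same fits. The count of wider cofactor genes called, 3 in the reported fit, was 0 with no filter on low counts, 0 by limma voom and 0 to 4 with 1 library left out. Over all genes, 839 calls became 500 with no filter, when 18741 genes were tested, and 74 (without wild-type replicate 1) to 1295 (without mutant replicate 2) with 1 library left out. With the replicate number as a block, 1 wider cofactor gene was called, Thra, at a log2 fold change of -0.57 (adjusted p = 0.0281), and the calls of Med4, Med7 and Med14 were lost; in the block fit no member changed its call. The cause of these changes was not tested. With 2 libraries a group, SEs of 0.08 (Hdac3) to 0.11 (Gps2) on the log2 scale limit what can be said of small differences.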
